A study of Mus musculus with 6 samples.

Results

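The genes described here encode the proteasome, its immunoproteasome variants and its helpers, in mouse leukemia cells that express the fusion oncogene MLL-AF9. They were taken by name: every array row paired with exactly 1 gene symbol beginning with Psma, Psmb, Psmc, Psmd, Psme, Psmf or Psmg and a digit, with the row of the highest mean over the 6 arrays where a gene had several. This gave 50 of the 30142 genes tested, each with 1 row. Of these 50, 4 belong to the immunoproteasome set (Psmb8, Psmb9, Psmb10 and Psme1), and the other 46 are called constitutive here. The constitutive set also holds 4 genes that share a name but are no proteasome subunit: the pseudogenes Psmb5-ps and Psmb6-ps, the meiotic recombination gene Psmc3ip, and Psme3ip1, whose protein binds PSME3. The catalytic subunit Psmb5 shares its array row with the microRNA gene Mir686, and the activator subunit Psme2 shares its rows with the near-identical Psme2b, so neither was analysed here.

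The leukemias go back to backcrossed Ppara +/+ or Ppara -/- mice and to cells infected with a retrovirus (MSCV-MLL-AF9-IRES-GFP) that carries the MLL-AF9 fusion and green fluorescent protein. Ppara encodes a nuclear receptor that is activated by fatty acids. All 6 samples carry the same fusion: leukemia cells were passed into secondary recipients, and marrow cells with GFP were sorted there, 3 samples of Ppara+/+ leukemia and 3 of Ppara-/- leukemia. GFP marks the infected donor cells; the recipients' own genotype, age and strain, and the type of cell infected, are not stated in the labels. The 1 comparison of the design is Ppara-/- against Ppara+/+. The labels do not say whether replicates came from separate primary leukemias, so the p-values rest on a sample-to-sample spread that may be technical.

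The proteasome degrades proteins tagged with ubiquitin. Its 20S core is a barrel of alpha rings, which gate entry, around beta rings, of which the subunits PSMB6 (beta1), PSMB7 (beta2) and PSMB5 (beta5) cut peptide bonds. A 19S cap of ATPases (the Psmc genes) and non-ATPase subunits (most Psmd genes) recognises, unfolds and feeds in the substrate. Interferon induces PSMB9, PSMB10 and PSMB8, which take the places of beta1, beta2 and beta5 in newly built cores, and also PSME1 and PSME2, which form an alternative cap. The resulting immunoproteasome shifts the peptides made towards those that fit MHC class I molecules, and it is abundant in blood cells.

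Values are log2 signals as deposited, so a difference of 1 is a doubling of signal, and signals of different genes were not ranked against each other. The 5222 negative-control rows had medians of 4.63 to 5.16 on the 6 arrays, highest on Ppara+/+ replicate 1 (5.16) and Ppara-/- replicate 2 (4.99), and their 95th percentile was never under 7.91. Of the 50 members 24 had a mean above 7.91, referred to here as the control level. Ppara itself, near the control medians, lay at 5.08 ± 0.18 (SD, n = 3) where the genotype is Ppara+/+ and at 5.19 ± 0.12 where it is Ppara-/-. Where its probes lie is not known, so this does not check the genotype labels. Of 12 leukemia and myeloid markers 10 lay above the control level, among them Elane, Mpo and Itgam. None passed, and 6 of the 12 had a negative and 6 a positive difference. Kit (difference 0.54) and Hoxa10 (0.35) lay higher and Cd34 (-0.87) lower in Ppara-/- samples without overlap. Over all genes, 5.15% separated upwards and 3.63% downwards. Hoxa10 and Cd34 had means under the control level. Cd34 was at 7.89, 6.50 and 7.99 in Ppara-/- replicates 1 to 3, so replicate 2 weighs heavily in its difference. Of the lymphoid markers measured, 0 of 7 T cell genes, 0 of 6 NK cell genes and 1 of 6 B cell genes (Ighm) had a mean above the control level.

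No proteasome gene passed the test between genotypes. With limma over all 30142 genes and Benjamini-Hochberg adjustment, 0 of 50 members had an adjusted p under 0.05, where 0.126% of all genes did (18 higher and 20 lower). At an adjusted p under 0.1 it was again 0 of 50, against 0.252% of all genes. Psmb6 was the 1 member with an unadjusted p under 0.05, where 5.78% of all genes had one. The members' differences were small, from -0.30 (Psmg2) to 0.24 (Psmb9) on the log2 scale. Of the 50, 38 had a negative difference, 11 a positive one and 1 (Psmb3) none, against 41.6% negative among all genes and 54.7% among the 4379 genes above the control level. The members' median difference minus the median of all genes was -0.11. Shifting each array by its negative-control median adds 0.12 to every gene's difference, which leaves 19 of 50 negative and, by construction, the same -0.11 relative to all genes. Without Ppara+/+ replicate 1 and Ppara-/- replicate 3, a pair chosen after the data were seen, 22 of 50 were negative and the members' median lay 0.02 above that of all genes. Most constitutive genes had their highest value on the first of these arrays and their lowest on the second. Leaving both out was therefore bound to raise many differences.

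**Figure D1:**
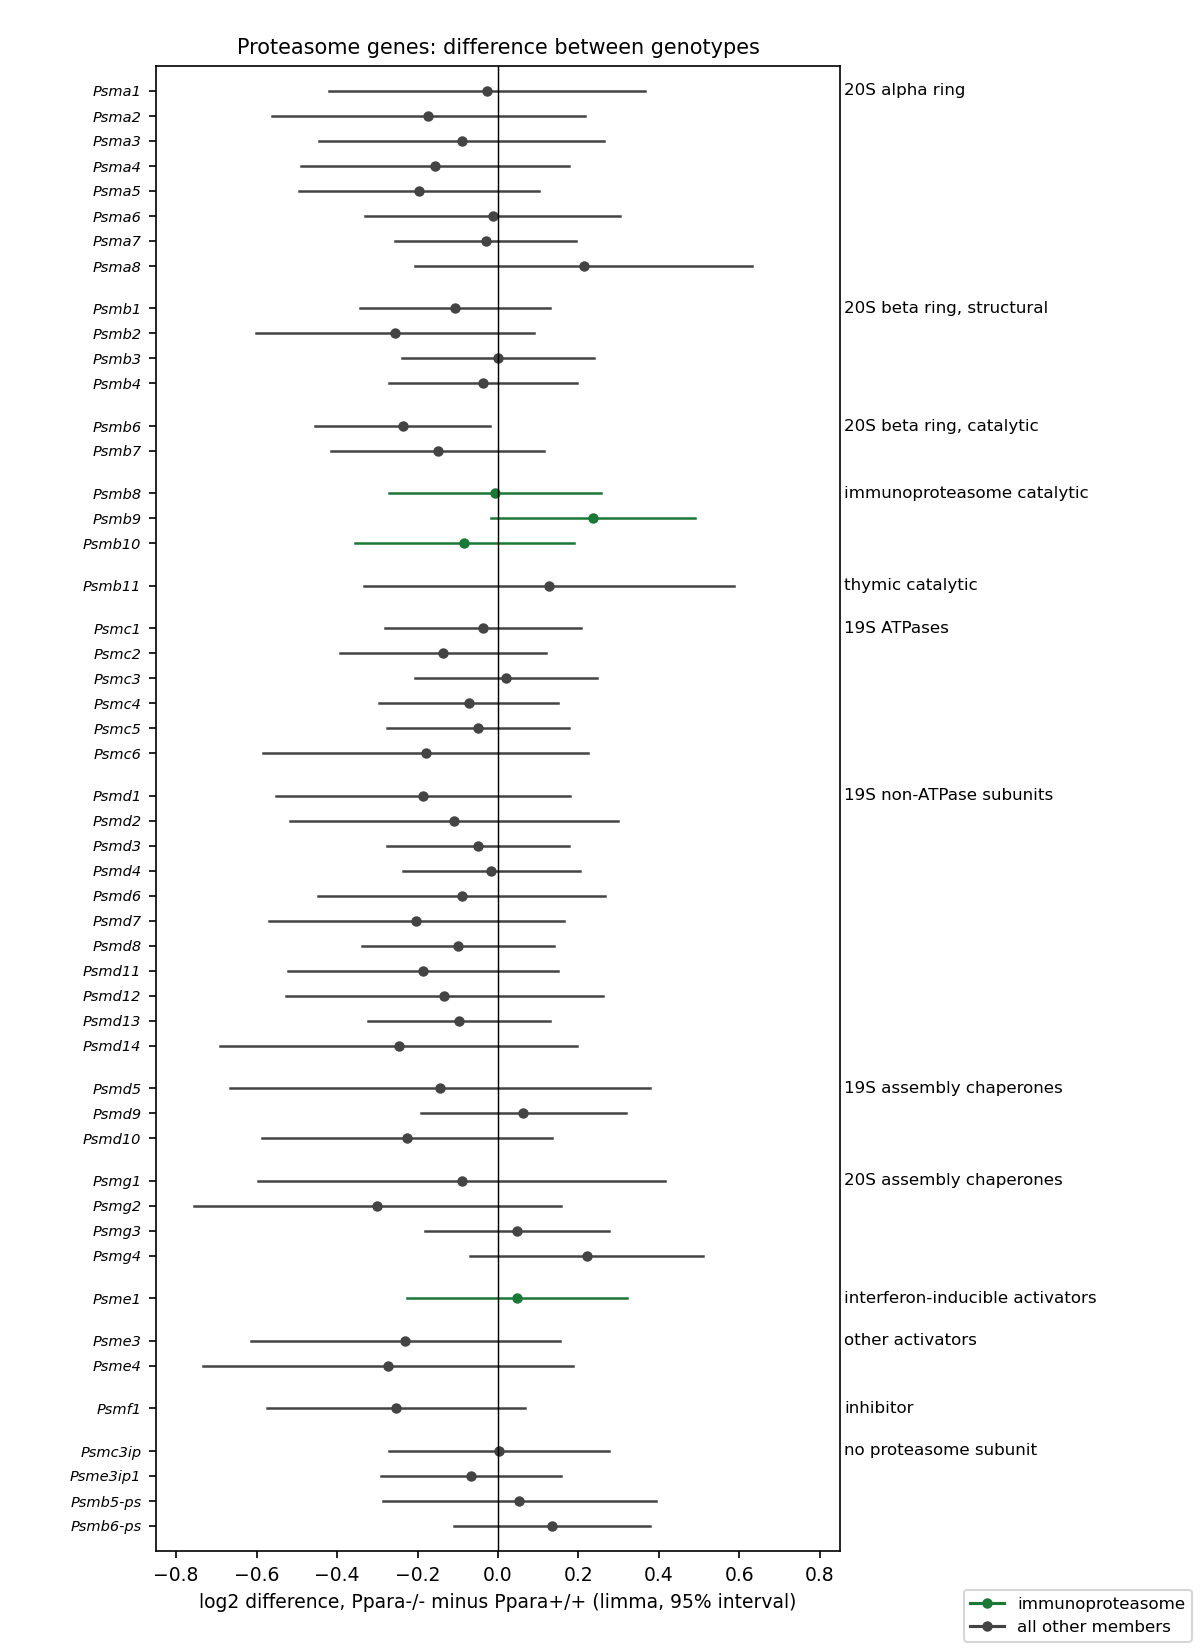
Log2 difference in signal (horizontal axis, Ppara-/- minus Ppara+/+, 3 arrays each) of the 50 members, listed by role, with the 95% interval of limma as bars; green marks the immunoproteasome set. All intervals but that of Psmb6 include 0, and Psmb9 has the highest value.

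The immunoproteasome subunit Psmb9 and its constitutive counterpart Psmb6, which alternate in the beta1 position and cut after acidic residues (PSMB6) or hydrophobic ones (PSMB9), were the only members whose values did not overlap between genotypes. Psmb9 had log2 signals of 6.45, 6.51 and 6.41 in Ppara+/+ replicates 1 to 3 and of 6.86, 6.67 and 6.55 in Ppara-/- replicates 1 to 3. Every Ppara-/- array lay above every Ppara+/+ array, by 0.24 on average (SE 0.11, 95% interval -0.02 to 0.49, a signal ratio of 1.18; limma adjusted p = 0.914). Psmb6 had signals of 8.61, 8.50 and 8.63 in Ppara+/+ and of 8.38, 8.32 and 8.33 in Ppara-/- samples. Here every Ppara-/- array lay below every Ppara+/+ array, with a difference of equal size in the scaling as deposited (-0.24, SE 0.10, 95% interval -0.45 to -0.02; limma adjusted p = 0.811). Separation without overlap was seen upwards in 5.15% and downwards in 3.63% of all genes, so 1 of 50 members in each direction is no more than the background. With arrays shifted by their negative controls, the differences were 0.36 for Psmb9 and -0.11 for Psmb6. Psmb9 lay under the control level on all 6 arrays, whereas Psmb6 lay above it on all 6.

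Within an array, log2 Psmb9 minus log2 Psmb6 compares the signals of both beta1 subunits, free of any scaling that shifts a whole array. Only its difference between genotypes can be read, since the probes differ, and because Psmb9 lay under the control level, its size in RNA is uncertain. It was -2.16, -1.99 and -2.22 in Ppara+/+ and -1.52, -1.65 and -1.78 in Ppara-/- samples. As Psmb9 was higher and Psmb6 lower on every Ppara-/- array, these values could not overlap. The exact p given next therefore had to be its smallest, and it adds nothing to the separation of the single genes. The mean went from -2.12 ± 0.12 to -1.65 ± 0.13 (SD, n = 3), a difference of 0.47 in log2 signal, or 1.39-fold in the signal ratio (exact two-sided permutation test p = 0.1, the smallest that 3 against 3 arrays allow, and 0.2 after Benjamini-Hochberg adjustment over the 2 pairs computed). With 1 array left out the difference stayed between 0.41 and 0.54.

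The regions just before both gene starts are printed because these genes are the pair whose values separated. Each line gives the 250 bases upstream of the start annotated by RefSeq on GRCm38.p6, read 5' to 3' along the gene, with matches to the motifs searched in capitals. Psmb9 is at chr17:34187331-34187580 on the minus strand and Psmb6 at chr11:70525107-70525356 on the plus strand.
Psmb9: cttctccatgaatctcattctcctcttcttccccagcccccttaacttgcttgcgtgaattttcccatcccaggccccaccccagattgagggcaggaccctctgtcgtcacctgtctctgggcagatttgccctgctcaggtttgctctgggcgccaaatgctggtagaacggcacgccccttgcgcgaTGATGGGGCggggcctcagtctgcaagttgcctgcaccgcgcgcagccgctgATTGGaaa
Psmb6: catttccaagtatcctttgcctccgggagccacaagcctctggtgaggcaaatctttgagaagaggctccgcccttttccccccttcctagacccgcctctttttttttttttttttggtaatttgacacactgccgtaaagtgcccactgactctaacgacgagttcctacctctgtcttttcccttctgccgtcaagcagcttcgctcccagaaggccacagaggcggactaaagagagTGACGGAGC
Capitals in Psmb9 mark TGATGGGGC, a match to TGANNNNGC (the core of the antioxidant response element, bound by NRF factors), and ATTGG, the reverse complement of CCAAT (bound by NF-Y). Those in Psmb6 mark TGACGGAGC, a match to TGANNNNGC that ends at the base before the gene start. The interferon-stimulated response element (here GAAA, any 2 bases, and GAAA again) had no match in the windows of Psmb9 and Psmb6, which run from 250 bases before to 50 after the start. All motifs were searched on both strands.

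Promoter windows were found for 40 of the 50 members. Among the immunoproteasome set, the interferon-stimulated response element matched in 1 of 4 genes, Psme1 (TTTCGCTTTC, within the first 50 bases after the start). Over all 32851 windows of this length, it matched in 3.44%. Among 34 constitutive proteasome genes, that element matched in 4 (Psmb3, Psmd4, Psmd9 and Psmg4). TGANNNNGC matched in 19 of these 34 (55.9%), against 41.3% of all windows, and CCAAT in 13 of 34 (38.2%), against 37.4%. These motifs are short and their sets overlap in part, and a match is a description of letters only.

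The other immunoproteasome genes lay within the spread of the replicates. Psmb10, the interferon-induced beta2 subunit, had signals of 8.16, 8.17 and 8.32 in Ppara+/+ and of 8.28, 7.94 and 8.18 in Ppara-/- samples. The Ppara-/- values enclosed most of the Ppara+/+ ones, with a difference of -0.08 (95% interval -0.35 to 0.19; limma adjusted p = 0.997). Its constitutive counterpart Psmb7, which gives the proteasome its trypsin-like activity, was at 8.49, 8.36 and 8.42 against 8.24, 8.46 and 8.12 in Ppara-/- samples. Ppara-/- replicate 2 lay among the Ppara+/+ values and the other 2 below them (difference -0.15, 95% interval -0.41 to 0.11). Log2 Psmb10 minus log2 Psmb7 was -0.33, -0.19 and -0.10 in Ppara+/+ and 0.04, -0.52 and 0.06 in Ppara-/- samples. The groups overlapped through Ppara-/- replicate 2, and the mean difference of 0.07 was smaller than the spread within Ppara-/- (SD 0.33, n = 3; exact two-sided permutation test p = 0.8). Without Ppara-/- replicate 2 it was 0.26, and it was negative without Ppara-/- replicate 1 (-0.02), without Ppara-/- replicate 3 (-0.03) and with the control signal as a covariate (-0.04).

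Psmb8, which replaces beta5 and carries the chymotrypsin-like activity of the immunoproteasome, had nearly equal means in both genotypes. Its signals were 7.64, 7.76 and 7.63 in Ppara+/+ and 7.86, 7.54 and 7.61 in Ppara-/- samples. The Ppara-/- arrays gave both the highest and the lowest value, and the difference was -0.01 (95% interval -0.27 to 0.26). Psme1, the alpha subunit of the interferon-induced PA28 cap, was at 8.64, 8.98 and 8.75 against 8.93, 8.73 and 8.85. All Ppara-/- values fell between the Ppara+/+ extremes (difference 0.05, 95% interval -0.23 to 0.32). These intervals leave room for changes of up to about 0.3 in either direction, and a p that misses the threshold does not show equal levels.

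**Figure D2:**
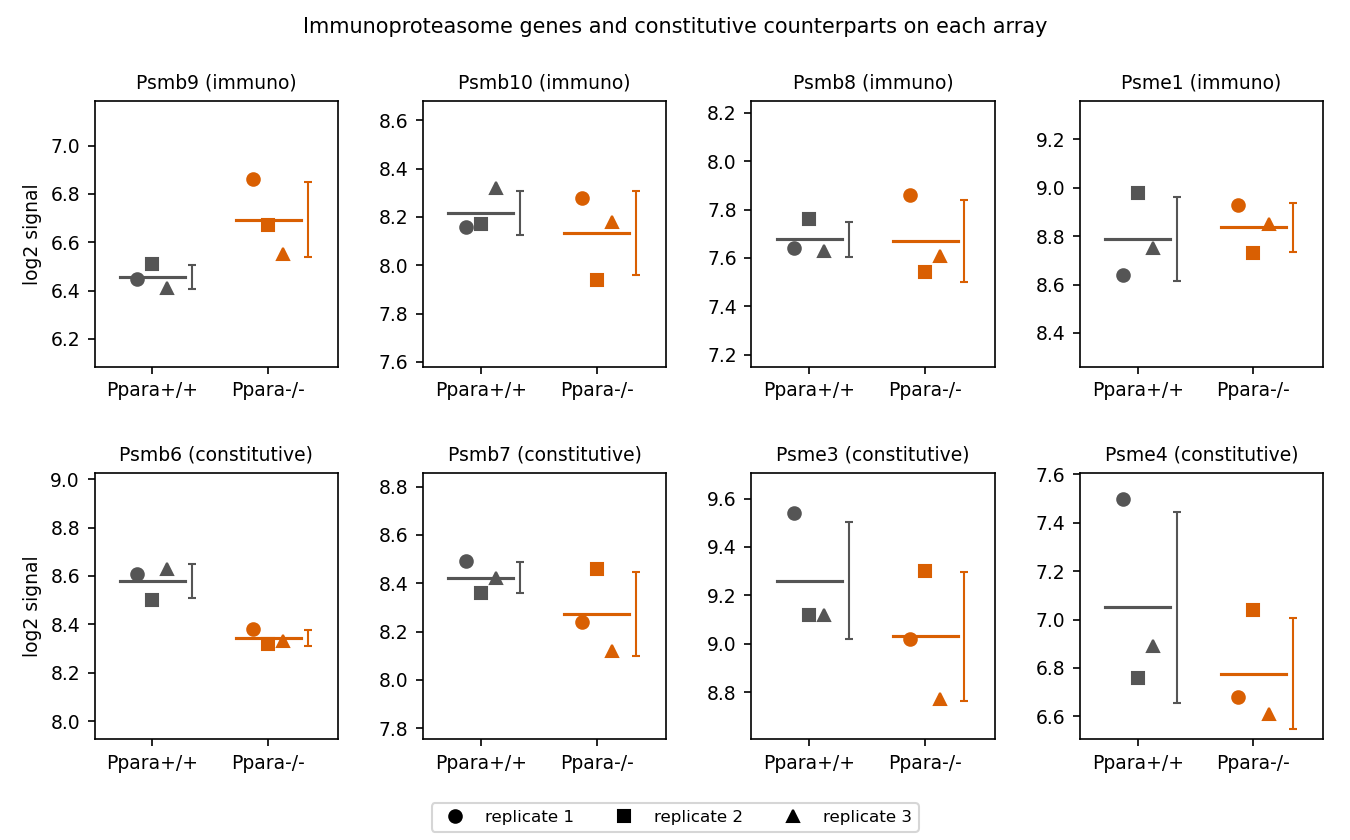
Log2 signal (vertical axis) of 4 immunoproteasome genes (top) and 4 constitutive genes (bottom) on each array; symbols give the replicate number, horizontal lines the mean and bars the SD of 3 arrays. Panels span the same log2 range but start at different levels. Psmb9 and Psmb6 separate by genotype, whereas Psme3 and Psme4 are highest on Ppara+/+ replicate 1.

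The activators that interferon does not define, Psme3 (the nuclear PA28 gamma) and Psme4 (PA200), were lower on average in Ppara-/- samples, with overlap. Psme3 was at 9.54, 9.12 and 9.12 in Ppara+/+ and 9.02, 9.30 and 8.77 in Ppara-/- samples (difference -0.23, SE 0.17). Psme4 was at 7.50, 6.76 and 6.89 against 6.68, 7.04 and 6.61 (difference -0.27, SE 0.20). In both genes Ppara+/+ replicate 1 was the highest array, Ppara-/- replicate 2 the next and Ppara-/- replicate 3 the lowest. The inhibitor Psmf1 (PI31), which binds the 20S core, was at 6.86, 6.62 and 6.69 against 6.43, 6.73 and 6.25 (difference -0.25, SE 0.14). Its arrays followed the same order at the top and the bottom, and limma's adjusted p was 0.997 for each of the 3 genes.

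Among the constitutive 20S core genes 12 of 14 had a negative difference, with a median of -0.10, and 0 of 14 passed. Without Ppara+/+ replicate 1 and Ppara-/- replicate 3, 8 of 14 were negative. Of the 14 genes, 8 were highest on the first of these arrays and 8 lowest on the second, so leaving both out was bound to raise many differences. After the shift by negative controls, which adds 0.12 to all genes, 6 of 14 were negative. The alpha ring gene Psma5 was at 7.72, 7.52 and 7.52 in Ppara+/+ and 7.39, 7.60 and 7.18 in Ppara-/- samples (difference -0.20, SE 0.13). Psma8, an alpha subunit of the testis, was at 3.53, 4.21 and 3.91 against 4.27, 3.85 and 4.17, under the control medians on all arrays. Of the structural beta ring genes, Psmb2 was at 7.50, 7.17 and 7.31 against 7.15, 7.28 and 6.78 (difference -0.26, SE 0.15). Psmb2 thus overlapped through Ppara-/- replicate 2. Psmb1 was at 9.32, 9.09 and 9.17 against 9.05, 9.15 and 9.06 (difference -0.11, SE 0.10). Psmb11, the beta5 variant of the thymic cortex, was at 4.49, 5.29 and 5.07 against 5.29, 5.02 and 4.92, near the control medians. The other genes of the alpha ring and structural beta ring had differences from -0.17 (Psma2) to 0.00 (Psmb3).

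In the 19S cap 16 of 17 genes had a negative difference, with a median of -0.10, and 0 of 17 passed. Without the same 2 arrays, which again held most of the highest and lowest values, 7 of 17 were negative. After the 0.12 shift of all genes it was likewise 7 of 17. Of the ATPases that unfold substrates, Psmc2 was at 8.36, 8.10 and 8.15 in Ppara+/+ and 8.02, 8.18 and 8.00 in Ppara-/- samples (difference -0.14, SE 0.11), and Psmc3 was the 1 gene with a positive difference (0.02). Psmc6 was at 8.80, 8.24 and 8.11 against 8.10, 8.33 and 8.18. Its difference of -0.18 rests on Ppara+/+ replicate 1, without which it was 0.03. All 11 non-ATPase subunits had negative differences, from -0.25 (Psmd14) to -0.02 (Psmd4), in the scaling as deposited. Psmd14, the enzyme that removes ubiquitin chains at the cap, was at 7.95, 7.46 and 7.40 against 7.29, 7.70 and 7.08. The scaffold subunit Psmd11 was at 8.18, 7.85 and 7.91 against 7.79, 8.03 and 7.56. In both, Ppara-/- replicate 2 lay among the Ppara+/+ values and Ppara-/- replicate 3 was the lowest array.

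The chaperones that build the particle went both ways, 4 of 7 negative and 3 positive, and none passed. All 7 had means under the control level. Psmg2, which pairs with Psmg1 to seed the alpha ring, had the lowest difference of all members, at 8.10, 7.52 and 7.33 in Ppara+/+ and 7.52, 7.41 and 7.12 in Ppara-/- samples (difference -0.30, SE 0.20). Psmg4, which pairs with Psmg3, was at 6.67, 6.59 and 6.59 against 6.97, 6.58 and 6.96 (difference 0.22, SE 0.13). Ppara-/- replicate 2 lay just under the Ppara+/+ arrays and the other 2 above them. Of the chaperones of the 19S base, Psmd10 (gankyrin) was at 6.82, 6.33 and 6.28 against 6.28, 6.37 and 6.10. Psmd5 was at 8.43, 7.64 and 7.85 against 7.76, 8.20 and 7.53. Of the genes that are no subunit, Psmb6-ps was at 4.37, 4.37 and 4.14 against 4.48, 4.43 and 4.37, and Psme3ip1 at 8.20, 8.07 and 8.01 against 8.03, 8.03 and 8.02. Probes that cannot tell a gene from its processed pseudogenes could mix their signals, and the probe sequences were not used here.

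Many constitutive genes shared a pattern across arrays, in which 1 array of each genotype stood apart. Of the 46, 28 had their highest value on Ppara+/+ replicate 1 (60.9%), against 19.1% of all genes and 42.1% of the genes above the control level. In addition, 25 of 46 had their lowest value on Ppara-/- replicate 3 (54.3%), against 31.5% of the genes above the control level. Relative to each gene's mean over 6 arrays, the 19S genes averaged 0.21, -0.03 and -0.01 on Ppara+/+ replicates 1 to 3 and -0.05, 0.05 and -0.16 on Ppara-/- replicates 1 to 3. The 2 arrays with positive averages are those with the highest negative-control medians, 5.16 and 4.99. The average of the 4 immunoproteasome genes was lowest on these same 2 arrays, at -0.09, 0.05 and -0.03 in Ppara+/+ and 0.17, -0.09 and -0.01 in Ppara-/- samples. By gene, 1 of the 4 was lowest on Ppara+/+ replicate 1 and 2 on Ppara-/- replicate 2. Neither direction is particular to proteasome genes. All genes together were also lowest on Ppara+/+ replicate 1 (-0.05) and Ppara-/- replicate 2 (-0.03). The genes above the control level were highest there (0.11 and 0.04). The part of the control signal in either pattern was not tested. With the negative-control median as a covariate, the median difference of the constitutive genes was -0.05 in place of -0.09. Without Ppara+/+ replicate 1 it was -0.045 and without Ppara-/- replicate 3 it was -0.05, while without both it was 0.01. As most constitutive genes had their highest or lowest value on these arrays, leaving them out tends to raise the median.

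**Figure D3:**
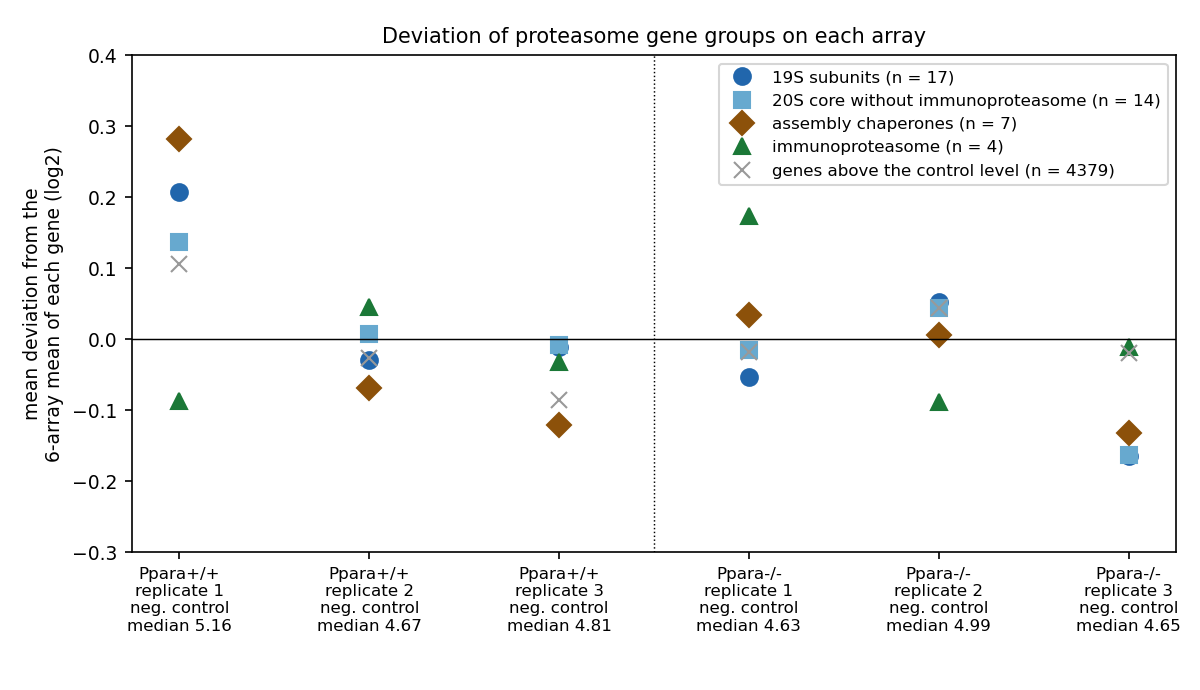
Mean deviation (vertical axis, log2) of each gene group from its genes' 6-array mean, on each array, with the median of the negative controls under each label; the dotted line divides the genotypes. Constitutive groups are highest on Ppara+/+ replicate 1 and lowest or near lowest on Ppara-/- replicate 3. The immunoproteasome average is lowest on the 2 arrays with the highest control signal. Genes above the control level are highest on those 2 arrays.

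Set against the constitutive genes, the values of the immunoproteasome set overlapped between genotypes. The median log2 difference was -0.09 over the 46 constitutive genes and 0.02 over the 4 immunoproteasome genes, where the median over all genes was 0.02. On each array the mean of the 4 minus the mean of the 46 was 0.01, 0.32 and 0.27 in Ppara+/+ and 0.46, 0.14 and 0.42 in Ppara-/- samples. The groups overlapped, and the difference in means of 0.14 was smaller than the SD within either genotype (0.17 in each, n = 3). It was 0.05 with the control signal as a covariate and 0.04 without Ppara+/+ replicate 1. Without that array and Ppara-/- replicate 3, the pair chosen after the data were seen, it was 0.00. Leaving out Ppara-/- replicate 2 instead gave 0.24, Ppara+/+ replicate 2 gave 0.20 and Ppara-/- replicate 1 gave 0.08. Without Ppara+/+ replicate 1 and Ppara-/- replicate 3, Psmb9 minus Psmb6 differed by 0.52 between genotypes.

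**Figure D4:**
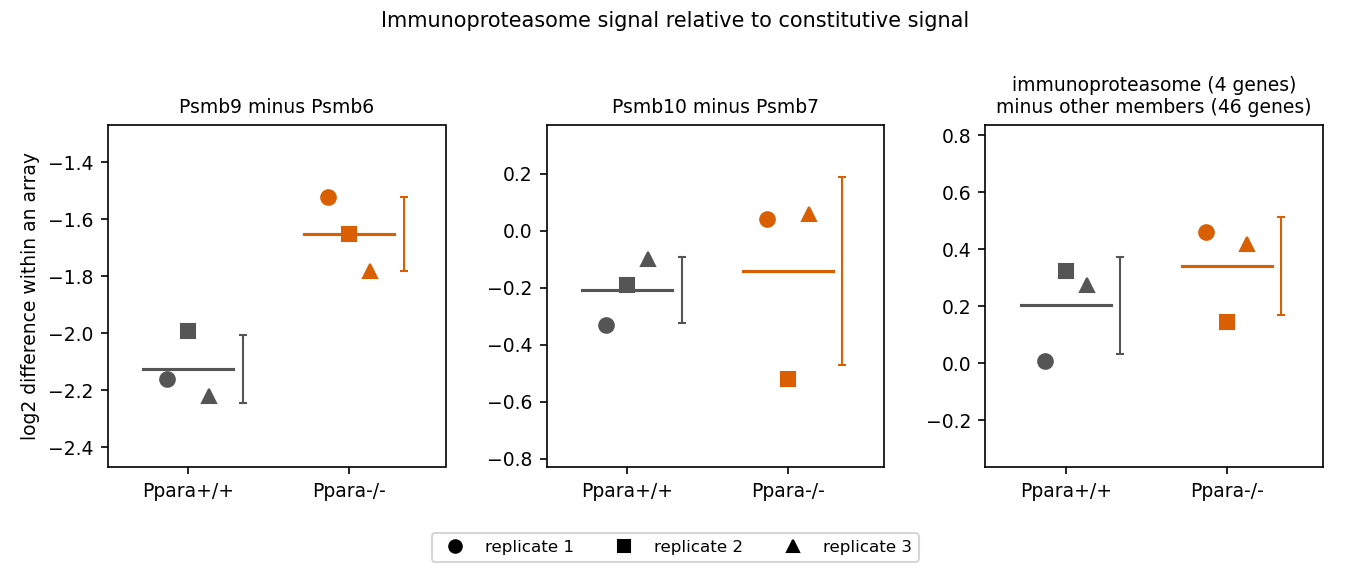
Difference in log2 signal within each array (vertical axis) for Psmb9 minus Psmb6, Psmb10 minus Psmb7, and the mean of 4 immunoproteasome genes minus the mean of the 46 other members; symbols give the replicate, lines the mean and bars the SD of 3 arrays. Only Psmb9 minus Psmb6 shows no overlap between genotypes, which follows from the separation of both its genes.

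Genes around the proteasome gave larger single differences than its subunits, yet 0 of 44 measured in 4 lists passed. Of 16 proteasome partners, 12 were negative and 4 positive. Without overlap, 2 lay higher and 1 lower, where 5.15% and 3.63% of all genes did. Ecpas, which tethers the 19S cap to the core, was at 9.32, 8.56 and 8.63 in Ppara+/+ and 9.63, 10.07 and 9.99 in Ppara-/- samples. Every Ppara-/- array lay above every Ppara+/+ array, by 1.06 on average (SE 0.21, a 2.08-fold signal ratio; limma adjusted p = 0.182). Pomp, the chaperone that matures the beta ring and favours assembly of the immunoproteasome, was at 8.93, 8.64 and 8.83 against 8.32, 8.54 and 8.10, without overlap (difference -0.48, SE 0.14; limma adjusted p = 0.475). Of 7 regulators of proteasome genes 6 were negative. The NF-Y subunits Nfya and Nfyc had the smallest p of that list, with differences of -0.27 and -0.26 and limma adjusted p of 0.975 and 0.997.

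Regulators of the interferon response were split, 5 negative and 5 positive of 10 measured. The 2 with the smallest p, given here, were both negative, while Irf1 had the highest difference (0.44, with overlap). Without overlap, 1 of the 10 (Irf8) lay lower, where 3.63% of all genes did. Ifngr2, a chain of the interferon gamma receptor, was at 8.98, 8.67 and 9.14 in Ppara+/+ and 8.54, 8.45 and 8.68 in Ppara-/- samples (difference -0.37; limma adjusted p = 0.748). Irf8, a myeloid transcription factor that also acts on interferon-responsive genes, was at 8.84, 8.91 and 8.88 against 8.47, 7.13 and 8.64. All Ppara-/- values were lower, with most of the difference of -0.80 set by Ppara-/- replicate 2 (limma adjusted p = 0.853). In the supply of peptides to MHC class I, 7 of 11 genes were negative, yet H2-K1 and H2-D1 lay higher in every Ppara-/- sample, by 0.42 and 0.30 (limma adjusted p = 0.414 and 0.658); class I heavy chains are near-identical copies, so these signals are uncertain. Tap1 and Tap2, the peptide transporter genes beside Psmb8 and Psmb9, were picked with their values in view and had differences of 0.12 and 0.31. Tap2 did not overlap (7.99, 7.96 and 7.96 against 8.43, 8.13 and 8.27, limma adjusted p = 0.691). Of these 11 genes, 3 lay higher without overlap and 0 lower, where 5.15% and 3.63% of all genes did.

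Most markers of monocytes and macrophages lay lower on average in Ppara-/- samples beside these values, with 0 of 8 past the threshold (smallest limma adjusted p = 0.135). Of the 8 measured, 7 were negative, against 41.6% of all genes, and 5 lay lower without overlap (Csf1r, Adgre1, Cd68, Cx3cr1 and Lyz2), against 3.63% of all genes. The 1 positive marker was Ccr2 (0.37, with overlap), and Fcgr1 and Ly6c2 overlapped too, each with a difference of -0.13. Cd68 had a difference of -0.73 and Adgre1 of -0.66, and the list mean ran from 8.91 to 9.12 in Ppara+/+ and from 8.61 to 8.73 in Ppara-/- samples. Of 7 neutrophil markers 5 were positive, with a list median of 0.05. Only Retnlg lay higher without overlap (difference 1.28, limma adjusted p = 0.19), where 5.15% of all genes did. Retnlg lay under the control level on all 6 arrays. Whether these markers bear on Psmb9 or Psmb6 was not tested. In sorted bulk cells, fewer cells of a type and less RNA per cell cannot be told apart. The list means of T cell markers (4.71 to 5.05 in Ppara+/+, 4.83 to 5.01 in Ppara-/-) and NK cell markers (3.79 to 4.02 and 3.91 to 4.05) stayed near or below the control medians.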

How the data were processed

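RNA of 6 samples was measured on Affymetrix arrays. The probe set IDs belong to another platform than the array model in the design text, so the model is uncertain. Groups and replicate numbers come from the sample titles. Each probe set's value was deposited by the authors on the log2 scale; the submitters' processing notes name RMA and limma, with no order, and the genome build is not given in the sources used here. RMA includes quantile normalization, which removes a shift common to most genes. Of 72688 rows, 6732 were controls, 30604 had 1 gene symbol in the platform annotation, 2146 several and 33206 none here; RefSeq (GRCm38.p6) gave newer symbols for 827 rows. The 30142 genes were fitted with limma 3.58.1 in R 4.3.3 (lmFit, eBayes, no covariates, two-sided, Benjamini-Hochberg over all genes, threshold 0.05). On simulated data with few changed genes, the fit recovered 0% of those changed by 0.5 in log2, 70.9% at 1 and 98% at 2. Differences as small as those of the members could thus hardly pass. Promoters are RefSeq sequences of GRCm38.p6. Tables and plots used Python 3.11.15.

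The members, lists and tests were chosen with earlier results of these data known. Values are given for the immunoproteasome genes, their counterparts and, in each role and pathway list, the 2 genes with the smallest p; marker genes were named after their values were seen. Of the motifs searched, 1 is not reported here. Psmb8 to Psmb5, a planned pair, could not be computed. Alternatives covered scaling, filters, the prior, array weights, the control signal, a block and arrays left out. With 3 arrays a group, the number of arrays limits the precision.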

Additional observations from a re-analysis of the deposited data

How the results depend on the processing

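Over 18 alternative fits (scaling, filter, prior, block, arrays omitted), 0 members passed the threshold; in the values as deposited 0 did at an adjusted p under 0.1. Counting members by unadjusted p under 0.05 gave 1 in the values as deposited, where 1743 of 30142 genes had one. It gave 5 of 50 with array weights, where 3920 of 30142 genes had one. The rest gave 0 to 2 members, with 736 to 2870 of 30142 genes, or 360 of 4379 with the filter on dim genes. Over all genes, 38 passed in the values as deposited, 12 with the replicate block, 271 with array weights, 70 with a trended prior, 6 without Ppara-/- replicate 1 and 0 without the 2 arrays of highest control signal; the rest of the fits gave 1 to 52. Replicate numbers are not shown to pair the samples (deviations of same-numbered arrays correlated across genes with r of -0.326, -0.469 and 0.108), and the replicate block gave 0 members past the threshold and the same medians (-0.09 constitutive, 0.02 immunoproteasome). With arrays shifted by their negative-control median, the constitutive median was 0.03 and the immunoproteasome median 0.14, with all genes at 0.15. Leaving out 1 array gave constitutive medians of -0.18 to -0.045 and immunoproteasome medians of -0.05 to 0.09.

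Of the 24 members described by their value on each array, 10, among them Psmb6 and Psmb9, took the opposite sign in none of the fits that measured them (17 or 18; Psma8 came to 0.00 in 1); the other 14, none of them called, did in at least 1. With the negative-control shift, differences were 0.0167 for Psmb1, 0.04 for Psmb10, 0.12 for Psmb8 and 0.0567 for Psme3ip1. With the control signal as a covariate, they were -0.0101 for Psmb11, 0.0533 for Psmd5 and -0.0224 for Psme1. Psmb8 was at 0.0156 after repeated quantile normalization, 0.10 with array weights and 0.04 without the 2 arrays of highest control signal, where Psmb11 was at -0.075. With 1 array, or both Ppara+/+ replicate 1 and Ppara-/- replicate 3, left out, differences ran from -0.1567 to 0.0133 for Psmb10, from -0.1033 to 0.2967 for Psmb11, from -0.1017 to 0.0583 for Psmb8 and from -0.035 to 0.1417 for Psme1. They ran from -0.3167 to 0.04 for Psmc6, from -0.325 to 0.02 for Psmd10, from -0.305 to 0.03 for Psmd11, from -0.4183 to 0.065 for Psmd14 and from -0.3283 to 0.235 for Psmd5. The activators ran from -0.365 to 0.04 (Psme3) and from -0.4183 to 0.035 (Psme4), and Psmg2 from -0.46 to 0.04. For Psmd10, Psmd11, Psmd14, Psme3, Psme4 and Psmg2 the only opposite sign came without both arrays, the pair chosen after the data were seen. No single array left out reversed these genes. The cause of these changes was not tested.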
